A study of Drosophila melanogaster with 2 samples.

Results

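The 300 strongest binding sites of the GFP-tagged product of CG15812 in Drosophila embryos lay mostly at gene starts. The sequence GGAACG stood within 50 bp of the summit at 152 of them. A summit is the peak position given for an entry of the authors' list. One called region can hold more than 1 summit, and the 300 sites lay in 279 called regions. The sites were chosen by the authors' signal value. The entries of the list made from both replicates together were sorted by that value on the 6 main chromosome arms. Ranks 1 to 300 were kept out of 29997. All 300 also cleared the authors' threshold on the irreproducible discovery rate (IDR), a measure of how alike replicates rank a region, as did 2886 of all pooled regions (9.62%). Nothing is read from that count, from the signal values or from the replicate values below, because the choice of the sites used them.

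The measurement was chromatin immunoprecipitation followed by sequencing (ChIP-seq) on entire Drosophila melanogaster embryos collected from 0 to 24 h, males and females together. The embryos came from 1 transgenic line that stably makes the CG15812 protein with GFP at its C terminus, and the labels, which list pfk as the antibody target, give no other genotype or treatment. The 2 samples, biological replicates 1 and 2, form 1 group with no untagged group beside it, so the comparisons are between these sites and the rest of the pooled list. A description in the labels calls both samples an input control, whereas the assay title and the antibody entry mark them as immunoprecipitated, and they were treated as immunoprecipitated here. Both replicates were called against 1 shared control, and the read depth is unknown. In whole embryos of mixed age, a site occupied in more cells and a site occupied more often in each cell cannot be told apart.

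CG15812 encodes a protein of the BTB family with a Pipsqueak-type DNA-binding domain. BTB domains let such proteins pair with each other and with partners, and the Pipsqueak domain, a helix-turn-helix fold, binds short DNA sequences and can occur in several copies in a protein. Well-known Drosophila relatives are Pipsqueak, which binds GAGA-type repeats, and Bric-a-brac, a patterning factor of limbs and ovary.

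The summits that carry the finding are printed first, as 101 bases of the plus strand of dm6 centred on the summit, with exact copies of GGAACG or of its reverse complement CGTTCC in capitals. The 1st site lies 56 bp upstream of a start of brat, a translational repressor that limits self-renewal in neural stem cell lineages. The 2nd is intronic, in crp, which encodes a bHLH transcription factor. The others are the gene starts of CG42747, of raskol (a Ras GTPase-activating protein), of spi (an EGF receptor ligand), of Six4 (a homeodomain factor), of pnt (an Ets factor downstream of the EGF receptor) and of not (a histone deubiquitinase), and introns of Dad (an inhibitory Smad) and of Sh (the Shaker potassium channel). They were picked to show single copies, tandem copies and copies on opposite strands.
brat, rank 1, chr2L:19158434-19158534: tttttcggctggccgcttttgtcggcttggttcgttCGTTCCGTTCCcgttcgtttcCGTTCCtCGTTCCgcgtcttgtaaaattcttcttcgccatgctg
crp intron, rank 2, chr2L:16269543-16269643: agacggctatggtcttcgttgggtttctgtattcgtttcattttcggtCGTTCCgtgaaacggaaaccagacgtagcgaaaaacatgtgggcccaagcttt
CG42747, rank 6, chr3L:6400421-6400521: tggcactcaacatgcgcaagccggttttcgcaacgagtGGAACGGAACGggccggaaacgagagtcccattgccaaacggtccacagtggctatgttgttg
raskol, rank 10, chrX:17723058-17723158: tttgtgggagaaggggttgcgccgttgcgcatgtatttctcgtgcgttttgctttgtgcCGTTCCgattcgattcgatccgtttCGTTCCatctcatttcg
spi, rank 13, chr2L:19575597-19575697: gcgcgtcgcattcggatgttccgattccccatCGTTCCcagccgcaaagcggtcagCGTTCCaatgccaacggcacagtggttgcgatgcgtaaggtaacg
Six4, rank 24, chr3L:20792805-20792905: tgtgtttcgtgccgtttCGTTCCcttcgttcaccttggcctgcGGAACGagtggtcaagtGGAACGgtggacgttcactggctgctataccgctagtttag
pnt, rank 26, chr3R:23314394-23314494: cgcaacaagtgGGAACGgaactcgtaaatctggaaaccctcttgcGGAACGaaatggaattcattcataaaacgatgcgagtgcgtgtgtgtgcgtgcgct
not, rank 44, chr3L:18621755-18621855: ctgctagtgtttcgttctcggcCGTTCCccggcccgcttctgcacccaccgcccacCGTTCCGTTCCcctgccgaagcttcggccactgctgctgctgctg
Dad intron, rank 112, chr3R:17056761-17056861: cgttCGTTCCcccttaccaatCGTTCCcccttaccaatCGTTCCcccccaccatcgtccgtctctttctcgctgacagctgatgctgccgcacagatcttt
Sh intron, rank 122, chrX:17963158-17963258: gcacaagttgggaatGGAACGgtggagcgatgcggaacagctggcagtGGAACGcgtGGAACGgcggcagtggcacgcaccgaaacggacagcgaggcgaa

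In brat, CG42747 and not, a pair of copies starts 5 bp apart on one strand, so that they share a G, and in Dad 3 copies repeat at even steps on one strand. The Six4 site has copies on both strands. Sites with no exact copy were the other 148 of the 300, and 5 of the 10 highest of them are printed next, with words that differ from GGAACG at 1 base in capitals. These are dpr16 (an immunoglobulin-domain cell-surface protein), an intergenic site whose nearest start is that of CG42758, ss (a bHLH-PAS factor of antennal and eye identity), CG7694, and Con (a cell-adhesion protein of motor axons and muscles).
dpr16, rank 16, chr3R:5150714-5150814: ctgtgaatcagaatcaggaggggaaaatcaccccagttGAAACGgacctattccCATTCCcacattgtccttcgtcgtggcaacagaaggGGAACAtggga
CG42758, rank 18, chr3L:14579081-14579181: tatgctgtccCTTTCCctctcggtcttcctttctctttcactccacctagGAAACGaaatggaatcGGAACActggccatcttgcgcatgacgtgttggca
ss, rank 20, chr3R:16403758-16403858: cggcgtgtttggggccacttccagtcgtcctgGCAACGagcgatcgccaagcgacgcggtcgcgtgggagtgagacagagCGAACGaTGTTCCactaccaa
CG7694, rank 33, chr3R:18573028-18573128: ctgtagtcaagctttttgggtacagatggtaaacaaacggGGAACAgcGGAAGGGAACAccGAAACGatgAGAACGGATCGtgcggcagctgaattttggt
Con, rank 38, chr3L:4976309-4976409: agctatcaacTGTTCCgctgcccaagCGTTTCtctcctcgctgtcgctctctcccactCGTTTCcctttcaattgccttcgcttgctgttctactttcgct

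GGAACG stood within 50 bp of the summit, on either strand, at 152 of the 300 sites (50.7%, 95% Wilson interval 45.0 to 56.3%). It stood there at 24.3% of the next 300 regions by rank (19.8 to 29.5%), at 10.5% of all other IDR peaks and at 4.32% of all pooled regions. In windows of the same length centred 400 bp to each side of the summit, the word was present in 10 of 600 windows around the 300 sites (1.67%) and in 14 of 600 around the next 300 (2.33%). Around the starts of all 13945 protein-coding genes, 435 windows held it (3.12%). The word was chosen with earlier results of these data known, so these shares are a description. These intervals and the others below cover counting error only and not that choice, sites in neighbouring windows can share sequence, and no difference was tested.

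**Figure D1:**
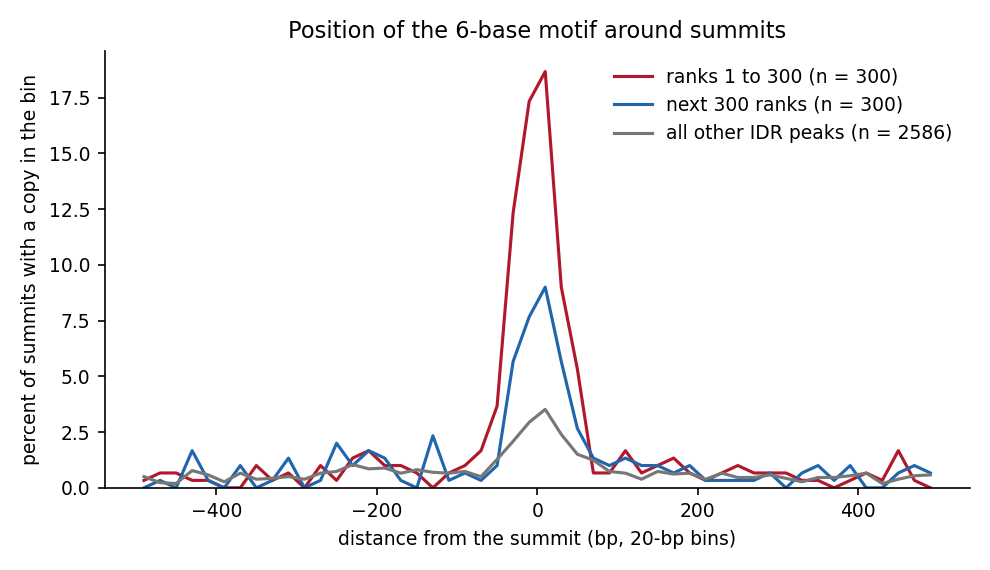
Share of summits with a copy of GGAACG, either strand, in 20-bp bins of distance from the summit, for ranks 1 to 300, the next 300 ranks and all other IDR peaks. The line of ranks 1 to 300 peaks at 18.7% in the bin just beyond the summit, against 9.0% for the next 300 and 3.52% for the other IDR peaks.

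Within the 300 sites the share with a copy was 74.0% in ranks 1 to 50 and 28.0% in ranks 251 to 300, with 46.0 to 58.0% in the 4 groups of 50 between them. The sites held 199 copies in all. One copy was present at 116 sites, 2 at 26, 3 at 9 and 4 at 1, the brat start. The median signal was 1842 at the 148 sites without a copy, 2177 at those with 1 copy, 3550 at those with 2 and 2685 at those with 3. At least 2 copies were found at 12% of the 300 sites, against 7.0% of the next 300 and 2.55% of all other IDR peaks. Copies lay close to the summit: the median distance was 15.5 bp, and 60.3% were within 20 bp, against 41.7% if they were spread evenly over the window. The next 300 were alike, with a median of 16.5 bp and 56.7% within 20 bp.

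A copy was present at 51.3% of the 238 sites within 1 kb of a gene start (44.9 to 57.5%) and at 48.4% of the 62 other sites (36.4 to 60.6%). In the next 300 it was 20.5% at promoters and 33.3% elsewhere. At the 122 promoter sites with a copy, the copy nearest to the summit lay on the strand of the gene in 35 cases (28.7%, 21.4 to 37.3%), so that the coding strand read CGTTCC at the other 87. The same share was 46.5% of 43 promoter sites in the next 300 (32.5 to 61.1%) and 46.7% in all pooled regions (42.9 to 50.5%).

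At 36 sites, 2 or more copies made 59 pairs, of which 51 lay on the same strand (86.4%, 75.5 to 93.0%) and 8 on opposite strands. Of the 29 pairs up to 20 bp apart, 27 were on the same strand. A spacing of 5 bp, at which neighbouring copies share a base, occurred 9 times, at 9 sites. The letters of the word allow this spacing only on the same strand, so the orientation of these 9 pairs was fixed in advance. They are counted in the 27 and the 51 same-strand pairs. The 9 sites were brat, CG42747, Atf3, Sry-delta, not, alpha-Man-Ia, CG13954, Ggt-1 and lncRNA:CR45483. Elsewhere in the list most pairs were also on the same strand, with 26 of 27 pairs on the same strand in the next 300 and 92.3% of 247 pairs in all pooled regions. Those counts include 8 pairs and 64 pairs at 5 bp, whose orientation was fixed in the same way. Short spacings were not particular to the 300 sites. Pairs up to 20 bp apart were 29 of 59 at the 300 sites, 18 of 27 in the next 300 and 79 of 114 in all other IDR peaks. Pairs at 5 bp were 9, 8 and 34 of the same totals, and the median spacing was 21, 15 and 12 bp. Pairs at a site with 3 or 4 copies share copies and are not independent.

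**Figure D2:**
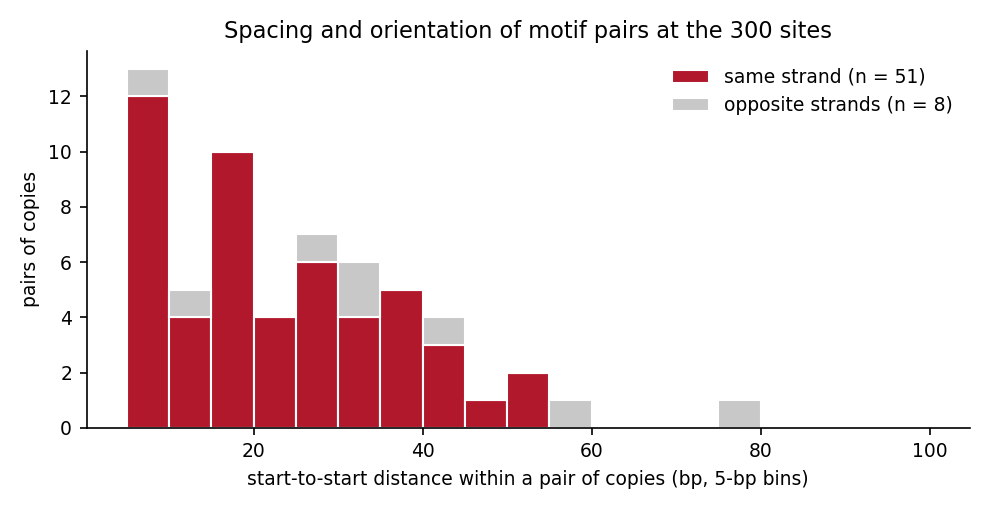
Start-to-start distance of the 59 pairs of GGAACG copies at the 300 sites, in 5-bp bins, with pairs on the same strand and on opposite strands stacked. The 51 same-strand pairs are most frequent at short spacings, and 29 of all pairs are up to 20 bp apart.

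Bases next to the copies were uneven as well. Counting from 1 at the first G of the word, the base before it was C in 38.2% and T in 39.2% of the 199 copies and A in 8.04%. For C, T and A in this order, that base had shares of 50.5%, 32.0% and 11.3% in the next 300. In all pooled regions they were 33.3%, 31.9% and 14.1%, so C and T were the most frequent there too. Position 11 was G in 49.2%, position 13 was A in 57.8% and position 16 was G in 46.2%, against 36.5%, 39.6% and 34.5% in the 1494 copies of all pooled regions. In the 97 copies of the next 300 the same shares were 49.5%, 43.3% and 45.4%, so positions 11 and 16 were close to those of the 300 sites. A further copy that starts 5 bp on fills positions 6 to 11, and its share in the value at position 11 was not tested. A copy that starts 5 bp earlier puts C before the word, and its share in that value was not tested either.

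Of the 148 sites without an exact copy, 122 held a word with 1 mismatch (82.4%, 75.5 to 87.7%), against 38.9% of their flank windows. In the next 300 this share was 60.4% at the summit and 39.6% in the flanks. Of the 18 possible words, 3 made up most of these matches, and each of the other 15 stood at 8.11% of the summits or fewer. GGAACA stood at 51 of the 148 summits (34.5%, flanks 4.73%), GAAACG at 44 (29.7%, flanks 3.38%) and GGAATG at 38 (25.7%, flanks 2.70%). One of these 3 was present at 100 sites (67.6%), against 10.5% of flank windows. The 3 words were singled out because they were the most frequent, so their summed share is a description.

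Neither an exact copy nor a word with 1 mismatch was found at 26 sites (8.67%). The highest of them were the start of Hr39, a nuclear receptor, at rank 54, an intron of crp at rank 76 and the start of ClpP, a mitochondrial protease subunit, at rank 79. Others were the starts of Hsp83, a heat-shock chaperone, and of the ribosomal protein genes RpL10, RpS27 and RpL15. A missing match says only that these letters are not in this window.

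Other sequence elements of fly promoters, read on both strands in the same windows, were less frequent. The Ohler 5 element, CAGCTGTT or CAGCTCTT, stood at 6.33% of the 300 sites and in 0.833% of their flanks. CGATA, part of the binding site of the insulator protein BEAF-32, stood at 22.3% of sites and in 12.8% of flanks. GAGAG was present at 12.7% of sites and in 10.5% of flanks, and the longer GAGAGAG, which contains it, at 4.0% of sites and in 1.33% of flanks. TATAAA stood at 7.33% of sites and in 16.7% of flanks, and the next 300 had a like pair of values, 8.67% at summits and 18.5% in flanks. The Zelda word CAGGTAG and the Ets word CCGGAAGT were found at 0 of 300 summits, which leaves an upper Wilson bound of 1.26%. In the next 300 the summit shares were 2.67% for Ohler 5, 17.3% for CGATA, 19% for GAGAG, 5.33% for GAGAGAG, 0.333% for CAGGTAG and 1.33% for CCGGAAGT. In all pooled regions they were 2.17% for Ohler 5, 15.4% for CGATA, 15.4% for GAGAG and 2.92% for GAGAGAG. They were 10.004% for TATAAA, 0.680% for CAGGTAG and 0.233% for CCGGAAGT there. The last 2 shares lie below the bound of 1.26%, so the counts of 0 do not show that either word was rarer than in all pooled regions. CCGGAAGT was also in 0 of 600 flank windows, both of the 300 sites and of the next 300. TATCGATA (DRE) stood at 2.0% of sites and in 0.833% of flanks, and in the next 300 at 4.0% and in 0.333%. For GGTCACAC (M1BP) the values were 1.67% and 0.333%, and in the next 300 1.67% and 0.5%. CACGTG stood at 1.33% of sites and in 1.83% of flanks (the next 300: 2.67% and 0.833%). CTTTCT stood at 6.67% and in 5.5% (9.0% and 5.17%). In all pooled regions the summit shares of these words were 1.25%, 1.12%, 1.48% and 6.37%.

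The signal of the 300 sites spanned a factor of 30.7 in the authors' units. It was 31565 at brat (15985 in replicate 1, 15770 in replicate 2) and 20584 at the crp intron (11071 in replicate 1, 9609 in replicate 2). The median over the 300 sites was 2132, and ranks 1 to 25 held 29.9% of the summed signal. The order has no gap at the limit. The last 3 sites inside it, at the starts of RpL15, lncRNA:CR46478 and tRNA:Ala-AGC-2-8, had signals of 1034, 1030 and 1027, and the first 3 regions outside it, whose nearest starts are those of lncRNA:CR44536, mRpS7 and asRNA:CR45912, had 1022, 1021 and 1010. The deposited −log10 q-value was at its maximum of 3.95 at all 300 sites and so does not rank them.

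**Figure D3:**
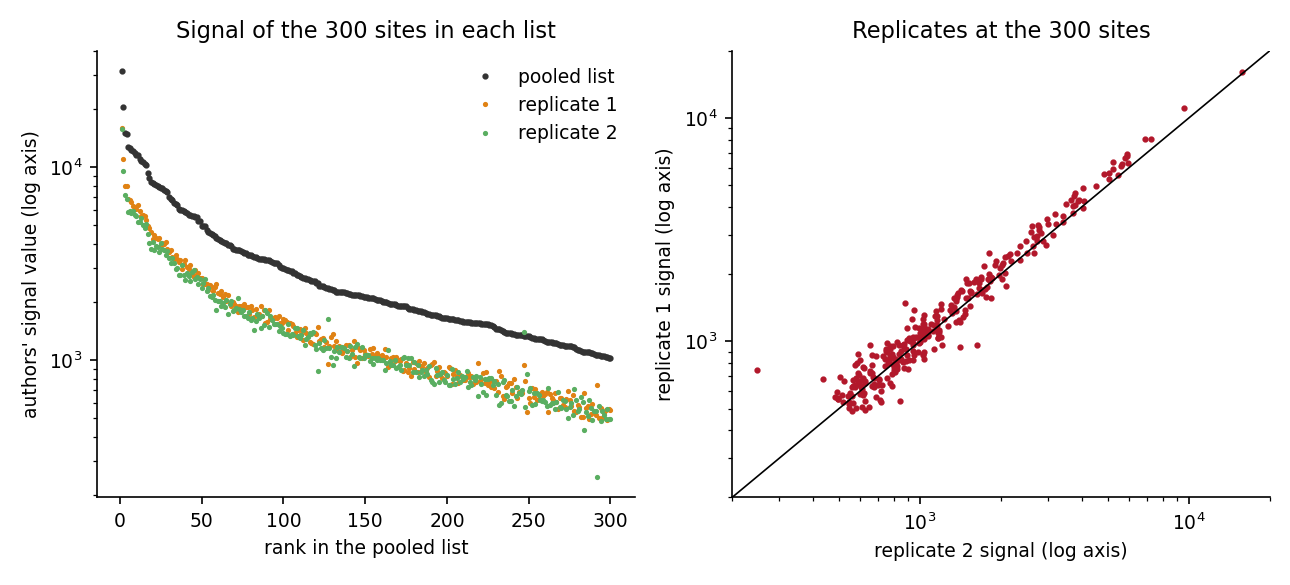
Left, the authors' signal (log axis) of the 300 sites by rank in the pooled list and at the matched summit of replicates 1 and 2. Right, replicate 1 against replicate 2 signal at the same sites (log axes, line of equality). The points follow the line, with the bin3 site at rank 292 (746 in replicate 1, 248 in replicate 2) farthest from it.

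Both replicates called every one of the 300 sites, with a replicate summit within 200 bp and a median shift of 3 bp in each. Of the 300 sites, 291 overlapped one of the 300 highest regions of replicate 1 by at least 1 bp and 291 one of replicate 2 (97.0% each, 94.4 to 98.4%), and 283 did so in both. Taken the other way, 97.7% of replicate 1's 300 highest regions and 98.3% of replicate 2's overlapped one of the 300 sites. The log2 ratio of replicate 1 to replicate 2 had a median of 0.09 and an SD of 0.22 over sites, and 204 sites (68.0%) were higher in replicate 1. The ratio passed 1 in size only at the bin3 site of rank 292, with 1.59. This summit shares its called region with the stronger bin3 summit of rank 21. At yki, a growth regulator of the Hippo pathway, the values were 1484 in replicate 1 and 878 in replicate 2 (rank 121), and at the weaker of the spi summits they were 962 and 1630 (rank 127). At the scrt and Cdk1 summits of ranks 247 and 278 the matched replicate 2 summit lay nearer to another pooled summit, so their ratios are uncertain.

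The called regions at the 300 sites were wide. Their median width was 713 bp (quartiles 556 and 1107 bp), against 370 bp for the next 300 and 400 bp for all pooled regions, of which 94.3% are exactly 400 bp long, as is none of the 300. A width over 1 kb was found at 85 sites and over 2 kb at 21. The widest region, 3292 bp at CG3638, holds 2 of the 300 summits, and the next, 3051 bp at bou and ogre, holds 3. The narrowest were 328 bp at CG14100, 336 bp at RpS27 and 352 bp at Hsp83. Width comes from the same peak call as the signal, so it is given as a description. The G+C content of the summit windows had a median of 45.5%, against 46.0% for the next 300 and 44.6% for all pooled regions.

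A transcription start site (TSS) lay within 1 kb of the summit at 238 of the 300 sites (79.3%, 74.4 to 83.5%). This share was 70.0% in the next 300 (64.6 to 74.9%), 69.9% in all other IDR peaks (68.1 to 71.6%) and 47.0% in all pooled regions. Within the 300 sites it did not change steadily with rank. It was 76.0% both in ranks 1 to 50 and in ranks 251 to 300, and 72.0 to 88.0% in the groups of 50 between them. The 300 sites were also closer to the start, since 53.7% lay within 100 bp of a TSS, against 38.7% of the next 300, 38.5% of all other IDR peaks and 18.0% of all pooled regions. The remaining sites comprised 38 in introns, 19 between genes, 3 in exons of noncoding RNA, 2 in untranslated regions and 0 in coding exons. Introns held 12.7% of the 300 sites (9.37 to 16.9%), against 21.3% of the next 300 (17.1 to 26.3%). None of these differences was tested.

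The promoter summits lay just upstream of the TSS. Their median position along the gene was −44 bp (quartiles −88.5 and −6.5 bp), and 182 of 238 were upstream (76.5%, 70.7 to 81.4%). In the next 300 the median was −47.5 bp, with quartiles of −126.75 and 0.5 bp and 74.8% upstream, and in all pooled regions 55.2% were upstream. A summit with 2 or more protein-coding genes starting within 1 kb accounted for 31.5% of the 238 promoter sites and 34.3% of those in the next 300. The nearest start belonged to a protein-coding gene at 227 promoter sites, to a noncoding RNA at 8 and to a tRNA at 3. None of the 300 summits lay in an annotated transposable element, nor did any of the next 300, and only 0.663% of all pooled regions did.

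**Figure D4:**
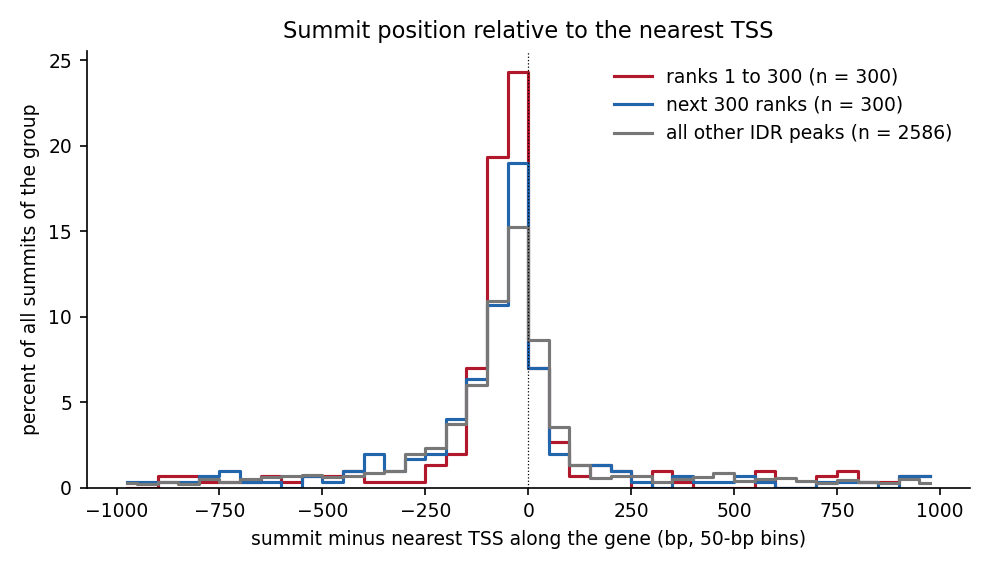
Position of summits relative to the nearest TSS along its gene, in 50-bp bins from 1 kb upstream to 1 kb downstream, as a share of all summits in each group. In the bin just upstream of the TSS stood 24.3% of ranks 1 to 300 and 19% of the next 300, and in the next bin upstream 19.3% and 10.7% of the same groups.

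The 62 sites away from gene starts had a median signal of 2220, against 2057 at the 238 promoter sites. Their median distance to a TSS was 4191 bp (1003 to 39456 bp). The highest lies at chr2L:16268962-16270504 in an intron of crp. Next came an intergenic site 1313 bp upstream of Atf3, a stress-induced bZIP factor, with a signal of 10392. Its called region also holds the promoter summit of Atf3 at rank 25. Then came 2 intergenic sites with 9398 and 8829, whose nearest starts, those of CG43149 and CG42758, were 14198 and 11691 bp away. An intron of Pits held a site of 8134, and an intron of pyd, the fly ZO-1 junction protein, one of 7655. At tai, a coactivator of the ecdysone receptor, summits of 6040 and 5260 lay 29043 and 27236 bp downstream of a TSS. The 34 genes that host such a site had a median length of 25.1 kb.

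Members at gene starts belonged to 279 of the 13945 protein-coding genes (2.0%). These genes had a median length of 3.93 kb, against 4.03 kb for genes with another IDR peak only and 2.17 kb for all protein-coding genes, and 21.1% of them had 3 or more TSSs, against 19.3% of genes with another IDR peak only and 8.12% of all protein-coding genes. The highest promoter sites after brat were at lncRNA:CR44206 (15126), ogre (14844), gol (12687), CG42747 (12628), Drat (12291) and robo2 (12137). They were followed by Polr1D (11828), raskol (11655), Gpat4 (11604), Sesn with its neighbour CG46429 (11054), spi (10825), retn (10630) and dpr16 (10307). The ogre gene encodes an innexin, the subunit of insect gap junctions, and robo2 a receptor for the guidance cue Slit. Goliath, the product of gol, is a RING-type ubiquitin ligase, Polr1D is a subunit shared by RNA polymerases I and III, and retn encodes an ARID-domain factor.

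Signalling and guidance genes with a site at their start are given next by group, as counts beside the 2.0% of all protein-coding genes. In the list of TOR and stress signalling, 5 of 28 genes had one (17.9%): Drat, an alcohol dehydrogenase-like protein, Sesn, a stress-induced inhibitor of TOR signalling (11054), Pdk1, a kinase that activates Akt (6466), bsk, the fly Jun kinase (3057), and SNF4Agamma, the gamma subunit of AMP kinase (1370). In the EGF receptor and Ras list 3 of 28 had one, namely raskol, spi and pnt (7786). Of the Notch pathway genes 3 of 19 had one, which were neur, a ubiquitin ligase for Delta (3188), bib, a channel-like membrane protein of neurogenesis (1905) and mam, a Notch coactivator (1180). Axon guidance and adhesion counted 6 of 63, with robo2, Con (6027), Sema2a (4064), Sema1a (3770), Eph (1538) and Ptp69D (1146). Innexins counted 2 of 8, with ogre and Inx2 (5532), the dpr and DIP cell-surface genes 2 of 32, with dpr16 and dpr17 (3683), and ion channels 2 of 39, with sei (2754) and Sh (2649). The sei start shares its site with tsr, which encodes cofilin, and bsk shares its site with CG31717.

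The lists of transcription factors and of other gene classes are read against the same 2.0% of all protein-coding genes, and no list was tested against it. T-box factors counted 2 of 8, with the neighbouring paralogues H15 (2114) and mid (1565). Basic helix-loop-helix and PAS factors counted 3 of 53, with ss (8275), crp (3358) and tai (1954). Homeodomain factors counted 2 of 81 (2.47%), near that share, with HGTX, an Nkx6-type factor (8053), and Six4 (7878), and bZIP factors 2 of 21, with Atf3 (7837) and REPTOR-BP, a partner of a TOR-regulated factor (1458). Nuclear receptors counted 2 of 21, with Hr39 (4619) and Eip75B, an ecdysone-induced gene (2745), Ets factors 1 of 8, with pnt, and forkhead and Sox factors 0 of 25. The neuroblast list counted 2 of 36, with brat and scrt (2578), and the list of segment polarity, Wnt and Hedgehog genes 1 of 26, with sgg, the fly GSK3 kinase (4228). Insulator and Polycomb genes counted 0 of 30 and muscle markers 0 of 15. Counts of 0 in lists this short are not read as a lack of sites, and all counts cover sites within 1 kb of a start only. Beyond that limit, the sites at ranks 129 and 180 were nearest to the starts of foxo, a forkhead gene, and ph-d, a Polycomb gene. They lay 4331 and 1084 bp upstream. Neuronal differentiation markers counted 2 of 19, ChAT and VAChT, which share 1 site (1641). The REPTOR-BP site is nearest to the start of Rsf1.

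Cytoplasmic ribosomal protein genes counted 7 of 92 among the 300 sites (7.61%), with signals between 1034 at RpL15 and 2585 at RpS27A, and 5 of the 7 were below the median of 2132 over the 300 sites. Some IDR peak was present at 83.7% of the 92, against 16.0% of all protein-coding genes, and this share ranged from 13.3% of RNA polymerase subunits to 60.7% of TOR and stress genes in the other protein-coding lists. The RpS27A site is nearest to the start of Ip259. Mitochondrial ribosomal protein genes counted 2 of 73 among the 300 sites (2.74%) and RNA polymerase subunits 1 of 30 (3.33%), both near the 2.0% of all protein-coding genes. The 2 mitochondrial genes, mRpL18 and mRpS7, were counted through sites nearest to the starts of Taz and Cdk1. Of noncoding genes, 7 of 295 tRNA genes (2.37%) and 5 of 274 snoRNA genes (1.82%) had a site, against 0.901% of all 4219 noncoding genes, and neighbouring genes of these lists share sites. The tagged gene itself was the 1 of 13 BTB-Pipsqueak genes with a site. Its summit at rank 185 lay 37 bp downstream of a CG15812 start, in a called region of 595 bp at chr3L:3159737-3160331. The signal was 1783 in the pooled list, 921 in replicate 1 and 885 in replicate 2, and no copy of GGAACG was within 50 bp. The transgene carries CG15812 sequence, and whether it adds to the signal at this locus was not tested.

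The sites were unevenly spread over the arms. Arm 2L held 75 of them (3.19 per Mb), 2R 66 (2.61 per Mb), X 56 (2.38 per Mb), 3R 55 (1.71 per Mb) and 3L 43 (1.53 per Mb). Chromosome 4 held 5 in its 1.35 Mb (3.71 per Mb), among them the starts of anne, 4E-T, CaMKI and Eph. As a share of the IDR peaks of each arm the sites ranged from 7.94% on chromosome 4 to 13.3% on 2L. On 2L, 23 of the 75 sites and 52 of the 563 IDR peaks lay in 1 run of 214.7 kb, described below.

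Neighbouring sites were common. Of the 300 summits, 41 shared 20 called regions, against 6 in 3 regions among the next 300. Summits up to 10 kb from the next one made up 36.7% of the 300, against 21.3% of the next 300, and the median gap between neighbours was 124116 bp, against 254298 bp. With a limit of 50 kb the shares were 57.7% of the 300 and 35.0% of the next 300. Several genes held more than 1 site over their length. The brat gene had 4, at ranks 1, 9, 222 and 260, of which rank 9 lies at the start of Polr1D inside it. The crp gene had 4, at ranks 2, 35, 76 and 86. The ogre gene also had 4, at ranks 4, 66, 68 and 82, of which the last 3 lie around the start of bou inside it, and the nearby innexin gene Inx2 had rank 46.

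The run with most sites, with gaps of up to 50 kb, lay at chr2L:10221316-10436005 and held 23 of the 75 sites on that arm. All 23 were promoter summits, 11 had a copy of GGAACG, and their signals ranged from 1100 to 3510. Of the 78 protein-coding genes starting there, 35 had one of the 300 sites within 1 kb (2.0% of all protein-coding genes had one). An IDR peak was present at 55 of the 78 (16.0% of all protein-coding genes had one). The run was picked for its number of sites, so high shares are fixed by that choice and nothing is read from them. The run is dense in genes, with 363 coding genes per Mb against 113 over the arm. Among its genes are Prosalpha6, a proteasome subunit, eEF1delta, a translation elongation factor, me31B, an RNA helicase of mRNA storage granules, Utx, a histone demethylase, and Cdk1, the mitotic kinase. The run with the next highest number held 13 sites over 69.9 kb at chr2R:24029280-24099148, where 18 of 25 coding genes had a site, a share that follows from the choice in the same way. It runs from CG3163 through MAN1, tsr, eEF5, RpL12, RpL39 and yki to Gpat4 and enok, and its signals ranged from 1066 to 11604. On X, 6 sites from caz to nonA spanned 72.9 kb and 5 from ogre to Inx2 spanned 16.8 kb.

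**Figure D5:**
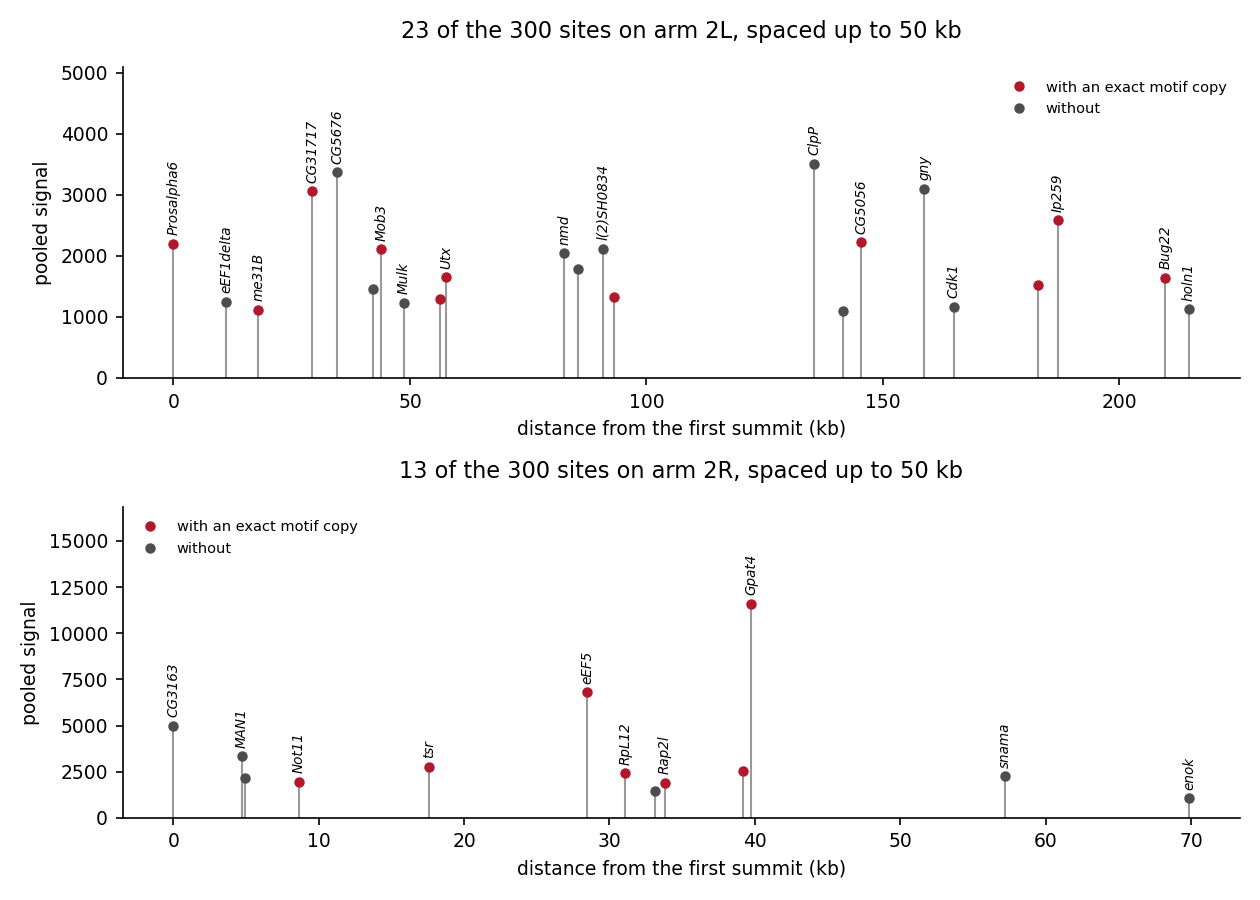
Pooled signal of the sites in the 2 runs with most sites, against distance in kb from the first summit, with sites that hold an exact copy of GGAACG in red and the others in grey. On 2L the 23 signals stay between 1100 and 3510, and on 2R the 13 sites include Gpat4 with 11604 and eEF5 with 6802. Gene names mark the nearest TSS where there was room.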

How the data were processed

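Chromatin was sonicated to 200 to 800 bp, per the labels. The notes deposited with the files say that each replicate list, and the list of both replicates pooled, was made from its alignments and 1 shared control alignment, as relaxed lists with background (30000 regions each), and that 1 further list holds the peaks past the IDR threshold. No label or note used here names the aligner, the peak caller, their versions or that threshold. The authors deposited a signal value, a −log10 q-value and a summit offset for each region. The signal is the authors' own, with no normalization stated, and was used to rank regions within a list and to compare replicates as log2 ratios at summits up to 200 bp apart. No column belonged to another sample (0). Depth is unknown.

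From these files, 3 pooled regions on Y were left out. Summits were placed on the Release 6 assembly (dm6), read from the RefSeq FASTA, and the Ensembl 115 annotation (BDGP6.54, same coordinates, transposable elements left out), 1-based, with Python 3.11.15, numpy 2.4.6, pandas 2.3.3 and scipy 1.17.1. Classes were assigned in the order promoter, coding exon, UTR, other exon, intron, intergenic. On simulated data, 197 of 200 planted motif counts and 200 of 200 TSS distances were recovered. No test was run. Shares have 95% Wilson intervals. The 300 sites, the 25 gene lists, the motifs and the rule for named genes were chosen with earlier results of these data known. The rule names ranks 1 to 25, the 3 sites on each side of the rank limit, up to 4 genes of each list by signal, the 10 highest sites over 1 kb from a TSS, the 8 with most copies, the 10 highest with none, chains of 3 or more sites, the 5 largest replicate differences each way, the 5 widest and 5 narrowest, those on chromosome 4 and the tagged gene. Other genes named were chosen after their values were seen. The alternatives varied the rank limit, the replicate used, the TSS distance, the motif window and the chain length.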

Additional observations from a re-analysis of the deposited data

How the results depend on the processing

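The 300 sites were recomputed with other settings. With ranks 1 to 150 the GGAACG share was 60.0%, the median width 929.5 bp and the median TSS position −39 bp, and with ranks 1 to 600 the GGAACG share was 37.5%, the median width 542 bp and the share in chains up to 10 kb 44.5%. With 1 replicate's own 300 highest regions (the sites without replicate 1 or without replicate 2), the GGAACG share was 51.0 to 51.7%, the promoter share 78.7 to 80.0%, the chain share 36.3 to 37.3%, the TSS median −44 to −41 bp and the width 587 to 678.5 bp. Counting 1 summit per called region lowered the chain share to 27.2%, against 19.9% for the next 300. Narrower limits lower a share by construction: the promoter share was 70.7% within 500 bp and 64.3% within 200 bp (the next 300: 62.3% and 51.7%), the GGAACG share 35.3% within 25 bp (16%), and the chain share 12.3% at 1 kb (2.67%). Wider ones raise it, to 91.3% for GGAACG with 1 mismatch (70.0%), 57.7% for chains at 50 kb (35.0%) and 100% for presence among the 600 highest regions of each replicate. The 13 values not given here stayed within the counting interval or the replicate spread. The values for the next 300 were added after seeing the data. No paired analysis was possible because there is a single group. Unknown depth, 1 shared control and the absence of an untagged sample from the samples analysed limit what the signal shows.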
